A study of Arabidopsis thaliana with 24 samples.

Results

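Abscisic acid (ABA) receptors of the PYR/PYL family were followed through leaf dehydration in Arabidopsis thaliana. The 10 genes described, PYR1 and PYL1 to PYL9, were chosen by gene identifier from the 27664 genes listed in each of 24 libraries. The mutant plants were grf6 grf8 double mutants, which carry mutations in 2 genes of the 14-3-3 family, GRF6 and GRF8, and they were set against wild type (WT). Each genotype was dehydrated for 0 h, 2 h and 4 h before the rosette leaves were frozen, which gave grf6 grf8 groups at 0 h, 2 h and 4 h and WT groups at 0 h, 2 h and 4 h with 4 libraries each. All plants had spent 12 days on Murashige and Skoog plates and 12 days in soil and were 24 days old at harvest. The allele types of the mutant and the number of plants behind a library are not given in the sources used here, so p-values measure the spread between these libraries. No watered plants of the later times are among the groups, and dehydration and time of day cannot be told apart.

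PYR/PYL proteins are soluble proteins that close over a molecule of ABA. The closed receptor binds clade A protein phosphatases 2C (PP2Cs) and blocks them, which frees the subclass III SnRK2 kinases to phosphorylate ion channels and transcription factors. In leaves this pathway closes stomata and turns on genes of water deficit. The family falls into subfamily I (PYL7, AT4G01026, PYL8, AT5G53160, and PYL9, AT1G01360), whose members are monomers in solution, subfamily II (PYL4, AT2G38310, PYL5, AT5G05440, and PYL6, AT2G40330) and subfamily III (PYR1, AT4G17870, PYL1, AT5G46790, PYL2, AT2G26040, and PYL3, AT1G73000), whose members form dimers. Monomeric receptors can inhibit some phosphatases with little or no ABA, whereas dimers have to come apart first.

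The coding parts follow the subfamilies. In the RefSeq annotation of build TAIR10.1, PYL7, PYL8 and PYL9 each have 3 coding exons, whereas the other 7 members have 1. Their coding lengths ran from 564 bases in PYL9 to 666 bases in PYL1. The most similar coding sequences were those of PYL7 and PYL9, 72.2% identical, followed by PYL8 and PYL9 at 68.4%, and PYR1 and PYL1 at 65.0%. PYL7 (AT4G01026, chr4:446978-448511, plus strand) is the only member whose gene overlaps others. AT4G01030 on the minus strand shares 571 bases with it and had at most 250 counts in a library, with a median of 54, against up to 4156 counts for PYL7. The long noncoding AT4G03845 shares 269 bases on the minus strand and is not among the 27664 genes listed, so it has no counts here. Use of strand in counting is not given in the sources used here, so reads of these overlaps cannot be assigned to a strand.

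The upstream sequences of the 3 subfamily I genes and of PYR1 are shown because these members had the highest transcript levels and moved in different directions. Capitals mark ACGTG, the core of the ABA-responsive element bound by bZIP factors, on either strand, or the hexamer CACGTG, which holds that core on both strands. Sequences are from RefSeq TAIR10.1, read 5′ to 3′ in the direction of the gene. PYL7 is given as the 29 bases next to its start (chr4:446949-446977) and as 30 bases around its hexamer (chr4:446896-446925), which lie in an exon of the upstream gene AT4G01023. The others are the 100 bases before the start, at chr5:21560501-21560600 for PYL8, chr1:141770-141869 for PYL9 and chr4:9928487-9928586 for PYR1, all on the plus strand.
PYL7 next to the start: caaaccagttaaactaagaCACGTaatct
PYL7 hexamer: gagagatatacaCACGTGcttaaagtcaac
PYL8: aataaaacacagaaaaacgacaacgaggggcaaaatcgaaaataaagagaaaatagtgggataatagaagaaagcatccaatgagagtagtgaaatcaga
PYL9: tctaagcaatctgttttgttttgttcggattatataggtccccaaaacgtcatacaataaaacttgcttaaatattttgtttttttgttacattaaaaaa
PYR1: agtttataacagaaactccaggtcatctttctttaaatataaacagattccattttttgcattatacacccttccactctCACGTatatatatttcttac

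In the 250 bases before the start, searched on both strands, ACGTG was found in 3 of 10 members, against 22.9% of 27443 gene promoters. PYL7 held it at 2 places, beginning 70 and 10 bases before the start, PYR1 held it 20 bases and PYL3 70 bases before the start. The hexamer CACGTG was found in PYL7 alone of the members, against 6.49% of all promoters, and it includes 2 of the ACGTG matches. CCGAC, the core of the dehydration-responsive element, was found in 0 of 10 members, against 12.0% of promoters. These matches describe letters in this window and do not show binding.

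Total counts ran from 17.4 M to 22.4 M per library. GRF6 averaged 307, 77.7 and 49.2 CPM in grf6 grf8 at 0 h, 2 h and 4 h, against 1573, 734 and 597 CPM in WT. GRF8 averaged 83.0, 84.9 and 57.3 CPM in grf6 grf8, against 290.0, 122 and 106 CPM in WT. In grf6 grf8 GRF6 was called lower at each time, whereas GRF8 was called lower at 0 h but not at 2 h (edgeR adjusted p = 1) or 4 h (adjusted p = 0.17). At 2 h the GRF8 libraries did not overlap and ran from 80.2 to 90.3 CPM in grf6 grf8 and from 102 to 141 CPM in WT. At 4 h they overlapped and ran from 46.2 to 78.7 CPM in grf6 grf8 and from 68.0 to 129 CPM in WT. The unadjusted edgeR p of GRF8 was under 0.05 at both times. CPM here means counts per M counts after scaling by the trimmed mean of M values. Libraries were also scored by the mean log2 CPM of 13 tested cell cycle markers. The 5 highest libraries scored 0.754 to 2.25 and the other 19 at most 0.352. The 5 are grf6 grf8 4 h replicates 1 and 2, grf6 grf8 0 h replicate 1, WT 4 h replicate 4 and WT 2 h replicate 4. WT 4 h replicate 4 stood furthest from its group in leaf markers, with 3720 summed CPM of 5 green leaf markers against 11375 to 14484 in the other 3 WT 4 h libraries. Its 4 root markers summed to 93.5 CPM, against 0.642 to 1.87 CPM in those libraries. That sum came from PYK10 alone, at 93.5 CPM. The root markers CASP1, COBL9 and EXP7 reached at most 0, 0.0584 and 0.117 CPM in any library. Results that rest on these libraries are given with and without them.

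At 0 h PYL8 was by far the most abundant receptor transcript, and at 4 h PYL7 was highest by mean. Levels of different genes are compared here in FPKM (fragments per kilobase and M mapped fragments), which divides by transcript length. PYL8, which acts in root ABA responses and is stabilised by ABA as a protein, averaged 245 ± 34.4 FPKM in grf6 grf8 and 254 ± 42.2 FPKM in WT at 0 h (SD, n = 4 each). PYR1, the first member found through resistance to the synthetic agonist pyrabactin, followed at 50.4 ± 3.60 FPKM in grf6 grf8 and 60.8 ± 11.5 FPKM in WT at 0 h. The FPKM ranges of PYL8, PYR1, PYL7 and PYL9 did not overlap at 0 h in either genotype and fell in that order. Below them PYL5, PYL1 and PYL4 overlapped with their neighbours at 0 h, and PYL6 was lowest of the 8 members tested in every library, at 0.713 ± 0.342 FPKM in grf6 grf8 and 0.530 ± 0.454 FPKM in WT.

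The order changed after dehydration. At 2 h PYL7 averaged 129 ± 19.5 FPKM in grf6 grf8 and 141 ± 31.2 FPKM in WT, and its range overlapped that of PYL8, at 111 ± 14.2 FPKM in grf6 grf8 and 105 ± 20.8 FPKM in WT. At 4 h PYL7 was highest by mean, at 157 ± 31.4 FPKM in grf6 grf8 and 165 ± 32.3 FPKM in WT. In grf6 grf8 at 4 h its range still overlapped that of PYR1, at 93.4 ± 22.2 FPKM, whereas in WT at 4 h PYL7 did not overlap PYR1, at 89.4 ± 26.9 FPKM. PYR1 and PYL8 overlapped at 4 h in both genotypes.

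PYL2 and PYL3 were at the floor of detection. PYL2, which acts in the ABA response of guard cells, had 7 counts over the 24 libraries, at most 2 in one, and was at 0 in 18 libraries. PYL3 had 24 counts, at most 6 in one, and was at 0 in 16 libraries. A count of 0 allows up to 3 counts, or 0.132 to 0.193 CPM depending on the library, counting error only. These 2 members did not pass the filter on low counts and were not tested, so 8 of 10 members entered the tests. Of the 4 remaining genes of the family, PYL10 had 4 counts over all libraries, PYL11 and PYL13 had 1 each and PYL12 had 0.

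**Figure D1:**
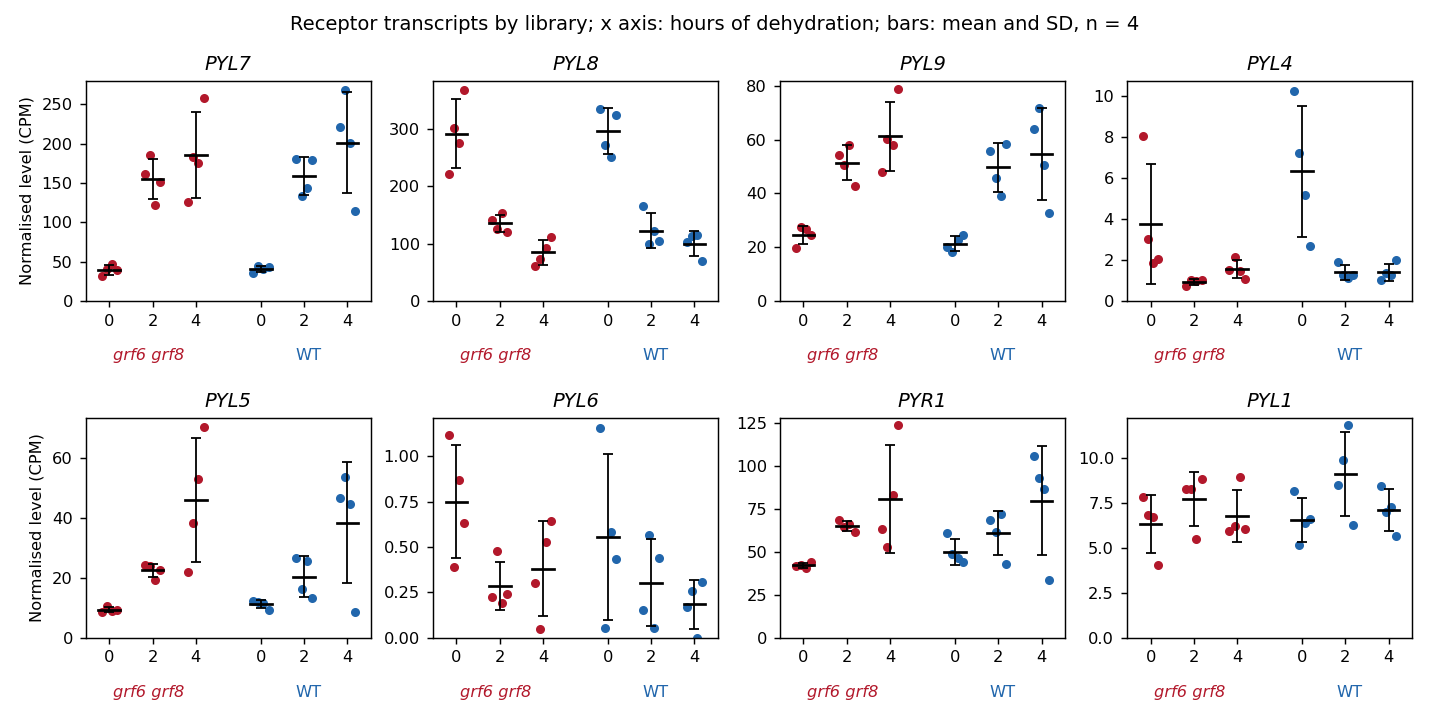
TMM-scaled CPM of the 8 tested receptors in each library, against hours of dehydration for grf6 grf8 (left) and WT (right); dots are libraries, bars the mean and SD of 4 libraries. PYL7 and PYL9 are higher and PYL8 is lower in every dehydrated library than in any 0 h library of the same genotype, and WT 4 h replicate 4 is the low dot of PYL5 at 8.65 CPM.

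After 2 h of dehydration, transcripts of PYL7 and PYL9 rose and those of PYL8 and PYL4 fell in both genotypes, and PYL5 rose in grf6 grf8. After 4 h, PYR1 had also risen and PYL5 had risen in both genotypes. PYL1 and PYL6 passed the test in none of these 4 comparisons with 0 h. In grf6 grf8, 3 of 8 tested members rose and 2 fell at 2 h, where 23.2% of 18841 genes were called higher and 20.3% lower. In WT, 2 rose and 2 fell at 2 h, where 23.1% of genes were called higher and 19.2% lower. At 4 h, 4 rose and 2 fell in grf6 grf8, where 28.1% of genes were called higher and 23.1% lower. The WT counts at 4 h were also 4 higher and 2 lower, where 27.8% of genes were called higher and 22.2% lower. In both directions together, 43.5% of genes were called in grf6 grf8 and 42.3% in WT at 2 h, and 51.2% in grf6 grf8 and 50.0% in WT at 4 h; of the 8 tested receptors, 5 in grf6 grf8 and 4 in WT were called at 2 h, and 6 in each genotype at 4 h. Calls are those of the edgeR quasi-likelihood test, fitted to all 24 libraries, at a Benjamini-Hochberg adjusted p under 0.05 over all genes tested. The comparisons of a genotype at 2 h and at 4 h share the 0 h libraries.

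The median log2 fold change of the 8 tested members at 4 h was 0.51 in grf6 grf8, against 0.07 for all genes tested, and 0.39 in WT, against 0.06 for all genes. In bulk leaf RNA, fewer cells of a type and less RNA per cell cannot be told apart. Some sets of tissue markers moved along with dehydration. The summed CPM of 4 vasculature markers ran from 139 to 199 in grf6 grf8 at 4 h, against 73.3 to 159 at 0 h. In WT it ran from 168 to 249 at 4 h, against 64.9 to 113 at 0 h. Most of this sum was SUC2, at a mean of 120 CPM over all libraries, against 1.45 to 9.45 CPM for the others. Of the 4 markers, 3 were called higher and 0 lower at 4 h in each genotype. The 5 green leaf markers summed to 8987 to 12565 CPM in grf6 grf8 at 4 h, against 21444 to 30747 CPM at 0 h, and to 3720 to 14484 CPM in WT at 4 h, against 26470 to 31288 CPM at 0 h. The 3 epidermis markers summed to 12.4 to 140.5 CPM in grf6 grf8 at 4 h, against 25.9 to 42.2 CPM at 0 h, and to 9.34 to 151 CPM in WT at 4 h, against 23.8 to 31.6 CPM at 0 h. The high sums at 4 h were those of the libraries rich in cell cycle transcripts, 91.2 and 140.5 CPM in grf6 grf8 replicates 1 and 2 and 151 CPM in WT replicate 4, and the other 4 h libraries had at most 16.9 CPM. The sums of the 5 guard cell markers overlapped between 0 h and 4 h. They ran from 34.5 to 88.0 CPM in grf6 grf8 at 4 h, against 22.7 to 46.4 CPM at 0 h. In WT they ran from 22.6 to 65.2 CPM at 4 h, against 36.5 to 48.1 CPM at 0 h. Most of the guard cell sum was KAT1, at a mean of 39.1 CPM over all libraries, against 0.435 to 2.77 CPM for the others. Of these 5 markers, 0 were called higher and 1 lower at 4 h in each genotype. Of the 4 root markers, 1 to 3 were at 0 in every library of a group. The part of these marker sets in the receptor changes was not tested.

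**Figure D2:**
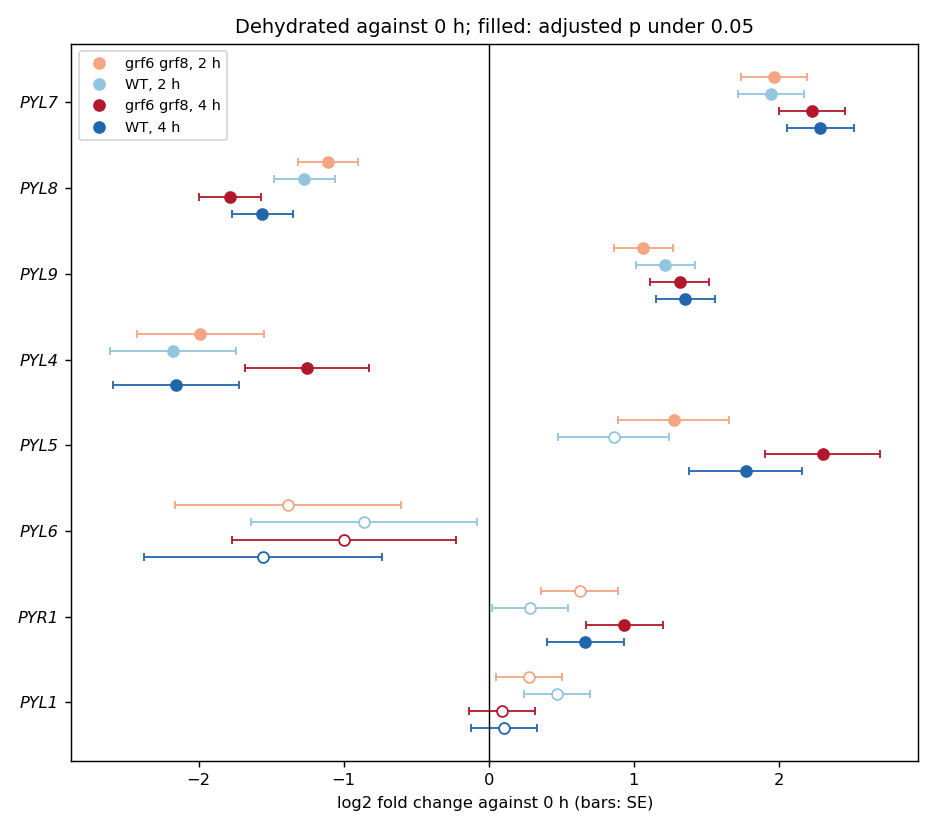
Log2 fold change of the 8 tested receptors against 0 h of the same genotype, for 2 h and 4 h in grf6 grf8 and in WT; bars are the SE of the edgeR fit and filled dots have an adjusted p under 0.05. PYL7, PYL9 and PYL5 lie to the right, PYL8 and PYL4 to the left, and PYL1 lies between 0.09 and 0.47, with open dots.

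PYL7 (AT4G01026), a subfamily I receptor, had the largest rise at 2 h of the tested members. In grf6 grf8 its libraries had 31.3, 40.7, 46.5 and 39.9 CPM at 0 h, 161, 185, 122 and 152 CPM at 2 h, and 126, 182, 175 and 258 CPM at 4 h. In WT they had 36.1, 44.4, 40.9 and 43.8 CPM at 0 h, 180.5, 134, 143 and 179 CPM at 2 h, and 222, 268, 201 and 115 CPM at 4 h. Every dehydrated library stood above every 0 h library of its genotype, and WT 4 h replicate 4 was the lowest of the dehydrated WT libraries. The log2 fold change at 2 h was 1.97 ± 0.23 in grf6 grf8 (SE, edgeR adjusted p = 8.8e-07) and 1.95 ± 0.23 in WT (adjusted p = 9.0e-07). At 4 h it was 2.23 ± 0.23 in grf6 grf8 (adjusted p = 1.1e-07), which is 4.69-fold, and 2.29 ± 0.23 in WT (adjusted p = 8.5e-08), which is 4.87-fold. Without the 5 libraries rich in cell cycle transcripts, the log2 fold change at 4 h was 2.39 in grf6 grf8 and 2.47 in WT.

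PYL8 (AT5G53160) went the other way. It had 222, 302, 276 and 368 CPM in grf6 grf8 at 0 h, 141, 126, 154 and 121 CPM at 2 h, and 61.3, 73.3, 92.5 and 112 CPM at 4 h. In WT it had 334, 272, 252 and 324 CPM at 0 h, 165, 98.9, 122 and 104 CPM at 2 h, and 104, 113, 115 and 69.4 CPM at 4 h. No dehydrated library reached the lowest 0 h library of its genotype. At 2 h its log2 fold change was -1.11 ± 0.21 in grf6 grf8 (edgeR adjusted p = 0.00022) and -1.27 ± 0.21 in WT (adjusted p = 5.5e-05), and at 4 h -1.78 ± 0.21 in grf6 grf8 (adjusted p = 6.7e-07) and -1.56 ± 0.21 in WT (adjusted p = 3.6e-06). At 4 h the level was thus 0.290 times that at 0 h in grf6 grf8 and 0.339 times in WT. Without the same 5 libraries the log2 fold change at 4 h was -1.59 in grf6 grf8 and -1.43 in WT.

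PYL9 (AT1G01360), the closest relative of PYL7 by coding sequence and a receptor tied to drought-induced leaf senescence, rose to an intermediate extent. Its libraries had 19.8, 27.4, 26.6 and 24.4 CPM in grf6 grf8 at 0 h, 54.4, 50.4, 58.2 and 42.7 CPM at 2 h, and 48.0, 60.1, 57.8 and 78.7 CPM at 4 h. In WT they had 20.15, 18.3, 22.5 and 24.5 CPM at 0 h, 55.7, 45.6, 39.0 and 58.5 CPM at 2 h, and 64.0, 71.7, 50.6 and 32.7 CPM at 4 h. The dehydrated and 0 h libraries did not overlap in either genotype, again with WT 4 h replicate 4 as the lowest dehydrated WT library. PYL9 had a log2 fold change of 1.07 ± 0.20 in grf6 grf8 (edgeR adjusted p = 0.00023) and 1.22 ± 0.20 in WT (adjusted p = 6.2e-05) at 2 h, and 1.32 ± 0.20 in grf6 grf8 (adjusted p = 1.6e-05) and 1.36 ± 0.20 in WT (adjusted p = 1.3e-05) at 4 h. The 3 monomeric receptors of subfamily I thus split, with 2 members higher and 1 lower in all 4 comparisons with 0 h, and these 12 calls held under each of the 32 alternative settings.

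Within subfamily II, PYL5 and PYL4 moved apart. PYL5, a receptor that confers drought tolerance when overproduced, had 8.52, 10.5, 8.99 and 9.18 CPM in grf6 grf8 at 0 h, 24.2, 24.0, 19.3 and 22.5 CPM at 2 h, and 21.9, 38.2, 53.1 and 70.4 CPM at 4 h. In WT it had 12.3, 11.8, 11.7 and 9.14 CPM at 0 h, 26.6, 16.3, 25.7 and 13.1 CPM at 2 h, and 46.8, 53.7, 44.5 and 8.65 CPM at 4 h. WT 4 h replicate 4 lay below all 4 WT 0 h libraries, while the other 3 WT 4 h libraries lay far above them. The log2 fold change at 4 h was 2.302 ± 0.39 in grf6 grf8 (edgeR adjusted p = 5.7e-05) and 1.77 ± 0.39 in WT (adjusted p = 0.00072), and without the 5 libraries 2.72 in grf6 grf8 and 2.095 in WT. At 2 h it was 1.27 ± 0.39 in grf6 grf8 (adjusted p = 0.011) and 0.86 ± 0.38 in WT (adjusted p = 0.074), where it passed the threshold in 5 of 32 alternatives, including the one without the 5 libraries (0.99, adjusted p = 8.3e-05), the one without WT 2 h replicate 4 (1.02, adjusted p = 0.044) and the one without WT 4 h replicate 4 (0.86, adjusted p = 0.0086).

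PYL4, which has been tied to jasmonate signalling, fell at a level near that of a rare transcript. It had 8.06, 3.01, 1.84 and 2.05 CPM in grf6 grf8 at 0 h, 0.721, 1.01, 0.997 and 1.02 CPM at 2 h, and 1.52, 2.17, 1.46 and 1.09 CPM at 4 h. In WT it had 10.3, 7.21, 5.17 and 2.67 CPM at 0 h, 1.90, 1.29, 1.12 and 1.27 CPM at 2 h, and 1.01, 1.35, 1.28 and 1.98 CPM at 4 h. The 0 h libraries were spread widely, and in grf6 grf8 the 4 h libraries overlapped them. The log2 fold change at 2 h was -1.99 ± 0.44 in grf6 grf8 (edgeR adjusted p = 0.0010) and -2.18 ± 0.43 in WT (adjusted p = 0.00040), and at 4 h -1.25 ± 0.43 in grf6 grf8 (adjusted p = 0.018) and -2.16 ± 0.43 in WT (adjusted p = 0.00032). The grf6 grf8 fall at 4 h was lost without grf6 grf8 0 h replicate 1 (-0.56, adjusted p = 0.22), without the 5 libraries (-0.81, adjusted p = 0.13) and in a fit of those 2 groups alone (-1.27, adjusted p = 0.063). Without the 5 libraries the grf6 grf8 fall at 2 h was -1.29 (adjusted p = 0.0072), smaller than with them.

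PYL6, a receptor that binds the transcription factor MYC2, had at most 26 counts in a library. Its libraries ran from 0.390 to 1.12 CPM in grf6 grf8 at 0 h, 0.190 to 0.479 CPM at 2 h and 0.0482 to 0.642 CPM at 4 h, and from 0.0534 to 1.15 CPM in WT at 0 h, 0.0562 to 0.567 CPM at 2 h and 0 to 0.309 CPM at 4 h. The groups overlapped throughout. The log2 fold change at 4 h was -0.996 in grf6 grf8, with a 95% interval from -2.60 to 0.61, and -1.55 in WT, with an interval from -3.26 to 0.15. These intervals hold no change as well as a fall.

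In subfamily III, PYR1 rose by less than the members above. It had 41.6, 42.2, 40.8 and 44.4 CPM in grf6 grf8 at 0 h, 68.4, 64.4, 66.3 and 61.7 CPM at 2 h, and 63.6, 52.8, 83.2 and 124 CPM at 4 h. In WT it had 61.2, 49.1, 46.3 and 44.2 CPM at 0 h, 68.5, 61.3, 72.0 and 43.0 CPM at 2 h, and 106, 93.0, 86.5 and 33.6 CPM at 4 h. In grf6 grf8 no dehydrated library overlapped the 0 h libraries, whereas in WT replicate 4 was below all 0 h libraries at both 2 h and 4 h. At 4 h its log2 fold change was 0.94 ± 0.27 in grf6 grf8 (edgeR adjusted p = 0.0058) and 0.67 ± 0.27 in WT (adjusted p = 0.041), and without the 5 libraries 1.32 in grf6 grf8 (adjusted p = 2.8e-06) and 0.91 in WT (adjusted p = 1.7e-05). The grf6 grf8 rise was lost without grf6 grf8 4 h replicate 4 (0.62, adjusted p = 0.058).

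The WT rise of PYR1 at 4 h was close to the threshold and was lost in 14 of 32 alternatives, with adjusted p from 0.056 to 0.17 there. These were the fits without a low-count filter, with the replicate number as a block, and of the 2 groups alone, and those without any one of WT 0 h replicates 2, 3 and 4, WT 2 h replicate 1, WT 4 h replicates 1, 2 and 3, grf6 grf8 0 h replicates 2, 3 and 4, and grf6 grf8 2 h replicate 3. At 2 h the log2 fold change of PYR1 was 0.63 ± 0.27 in grf6 grf8 (edgeR adjusted p = 0.061) and 0.29 ± 0.26 in WT (adjusted p = 0.40). Without the 5 libraries both values passed the threshold, at 0.62 in grf6 grf8 (adjusted p = 0.0012) and 0.39 in WT (adjusted p = 0.021). The grf6 grf8 value at 2 h passed the threshold in 6 of 32 alternatives, 3 of which left out a single library: WT 4 h replicate 4 (0.63, adjusted p = 0.010), grf6 grf8 4 h replicate 2 (0.63, adjusted p = 0.044) or grf6 grf8 4 h replicate 4 (0.63, adjusted p = 0.045).

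PYL1, the closest relative of PYR1 by coding sequence, was not called in any comparison with 0 h in the main fit. Its libraries ran from 4.04 to 7.81 CPM in grf6 grf8 at 0 h, 5.51 to 8.82 CPM at 2 h and 5.91 to 8.96 CPM at 4 h, and from 5.18 to 8.16 CPM in WT at 0 h, 6.28 to 11.9 CPM at 2 h and 5.65 to 8.45 CPM at 4 h. The groups overlapped at each step. At 4 h its log2 fold change was 0.09 in grf6 grf8, with a 95% interval from -0.38 to 0.57, and 0.11 in WT, with an interval from -0.36 to 0.58. At 2 h in WT it was 0.47 ± 0.23 (edgeR adjusted p = 0.10), which passed the threshold in the fit that left out WT 2 h replicate 4 (0.61, adjusted p = 0.036) and in that without the 5 libraries (0.58, adjusted p = 0.029).

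Between 2 h and 4 h, 1 receptor was called in grf6 grf8 and 0 in WT. In grf6 grf8, PYL8 was the single call, with a log2 fold change of -0.68 ± 0.21 (edgeR adjusted p = 0.037), where 12.1% of genes were called, 5.79% lower and 6.34% higher. Its 2 h and 4 h libraries did not overlap, but the call was lost in 10 of 32 alternatives, among them the fit without the 5 libraries (-0.37, adjusted p = 0.15), the fit with the replicate number as a block (-0.68, adjusted p = 0.058) and those without any one of grf6 grf8 2 h replicates 1, 2, 3 and 4 and grf6 grf8 4 h replicates 1 and 2. In WT, 0 of 8 members were called by edgeR and 0 by DESeq2, where 4.69% of genes were called, 2.57% higher and 2.12% lower. In WT 1 member had an unadjusted edgeR p under 0.05, where 3793 of 18841 genes did.

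This comparison rested on the libraries that stood apart. Without the 5 libraries, PYL5, PYR1 and PYL7 were called higher at 4 h than at 2 h in both genotypes. Calls over all genes were more frequent in this fit too, at 5861 of 18771 genes in grf6 grf8, of which 3155 were higher, and 4010 in WT, of which 2122 were higher, and the grf6 grf8 4 h group then held 2 libraries, replicates 3 and 4. The log2 fold change of PYL5 was then 1.49 in grf6 grf8 (edgeR adjusted p = 3.2e-05) and 1.10 in WT (adjusted p = 0.00060), against 1.03 ± 0.38 in grf6 grf8 (adjusted p = 0.078) and 0.91 ± 0.38 in WT (adjusted p = 0.18) with all libraries. That of PYR1 was 0.70 in grf6 grf8 (adjusted p = 0.0023) and 0.52 in WT (adjusted p = 0.017) without them, and that of PYL7 was 0.52 in grf6 grf8 (adjusted p = 0.038) and 0.62 in WT (adjusted p = 0.020). Leaving out WT 4 h replicate 4 alone gave 2 WT calls, PYL5 (1.22, adjusted p = 0.0050) and PYR1 (0.61, adjusted p = 0.041), and added PYL5 in grf6 grf8 (1.02, adjusted p = 0.0089). PYL5 was also called in grf6 grf8 without grf6 grf8 4 h replicate 1 (1.25, adjusted p = 0.033).

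The sum of receptor transcripts moved little while its make-up changed. The summed FPKM of the 10 members averaged 373 ± 29.5, 393 ± 22.7 and 428 ± 69.2 in grf6 grf8 over the 3 times of 0 h, 2 h and 4 h, while WT averaged 396 ± 54.3, 399.9 ± 49.5 and 428 ± 81.0 (SD, n = 4 each), and the ranges of all 6 groups overlapped. The sum is a description and was not tested. PYL8 made up 65.4 ± 4.35%, 28.3 ± 3.32% and 16.5 ± 0.908% of it in grf6 grf8 at these times, and 64.0 ± 2.71%, 26.2 ± 2.86% and 19.6 ± 3.32% in WT. The share of PYL7 was 9.12 ± 1.298%, 32.8 ± 4.64% and 36.5 ± 3.07% in grf6 grf8, and 9.20 ± 1.48%, 35.0 ± 4.38% and 38.6 ± 2.17% in WT. PYR1, with 13.6%, 19.2% and 21.8% in grf6 grf8 and 15.3%, 18.7% and 20.6% in WT, and PYL9, with 6.60%, 12.7% and 14.3% in grf6 grf8 and 5.53%, 12.8% and 12.3% in WT, took up most of the remainder.

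By subfamily, the share of the subfamily I receptors in summed FPKM was 81.1 ± 3.60%, 73.7 ± 0.847% and 67.4 ± 3.79% at the same times in grf6 grf8, and 78.7 ± 2.72%, 73.9 ± 5.45% and 70.5 ± 4.89% in WT. Subfamily II had 3.28 ± 1.20%, 4.92 ± 0.400% and 8.92 ± 1.78% in grf6 grf8 and 4.02 ± 0.983%, 4.71 ± 1.05% and 6.99 ± 2.15% in WT. Subfamily III had 15.6 ± 2.43%, 21.3 ± 0.738% and 23.7 ± 3.68% in grf6 grf8 and 17.2 ± 1.76%, 21.3 ± 4.62% and 22.5 ± 3.16% in WT. The monomeric subfamily I thus held most receptor transcripts at each time. Its largest member at 0 h was PYL8, at 65.4% of the sum in grf6 grf8 and 64.0% in WT. At 4 h it was PYL7, with a smaller share of 36.5% in grf6 grf8 and 38.6% in WT.

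**Figure D3:**
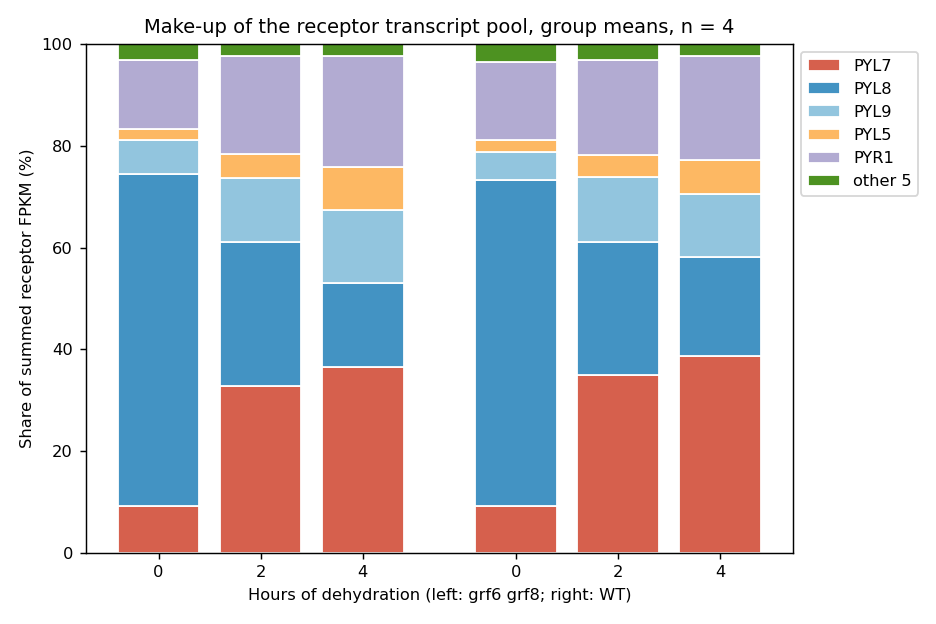
Mean share of each receptor in the summed FPKM of the 10 members, in percent, by hours of dehydration for grf6 grf8 (left) and WT (right), n = 4 per bar; "other 5" is PYL1, PYL2, PYL3, PYL4 and PYL6. PYL8 shrinks to 16.5% in grf6 grf8 and 19.6% in WT at 4 h while PYL7 grows to 36.5% in grf6 grf8 and 38.6% in WT.

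The exchange of PYL7 for PYL8 was seen in single libraries. The ratio of PYL7 to PYL8 FPKM averaged 0.140 ± 0.0252, 1.18 ± 0.288 and 2.22 ± 0.266 at the same times in grf6 grf8, and 0.144 ± 0.0267, 1.36 ± 0.284 and 2.01 ± 0.336 in WT (SD, n = 4 each). PYL7 exceeded PYL8 in 0 of 8 libraries at 0 h, 7 of 8 at 2 h and 8 of 8 at 4 h. The exception at 2 h was grf6 grf8 replicate 3, with a ratio of 0.806. WT 4 h replicate 4, low in both genes, had a ratio of 1.68, the lowest of the WT 4 h libraries but above 1.

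**Figure D4:**
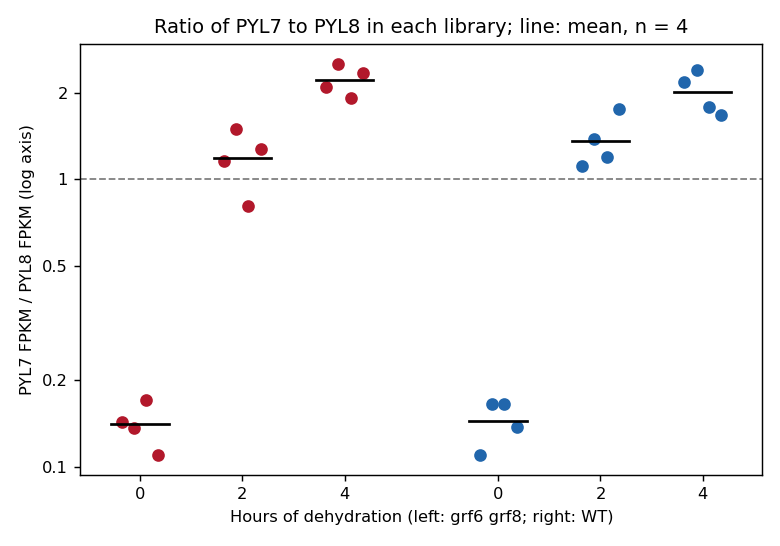
Ratio of PYL7 to PYL8 FPKM in each library on a log axis, by hours of dehydration for grf6 grf8 (left) and WT (right); lines are means of 4 libraries and the dashed line marks equal levels. All 0 h libraries lie below 0.2 and all 4 h libraries above 1.

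No receptor was called different between grf6 grf8 and WT at any time. The edgeR test called 0 of 8 members at 0 h, at 2 h, at 4 h and for the average of the times, with 0 at an unadjusted p under 0.05 in each, and DESeq2 called 0 as well. Of all genes, 0.0265% were called at 0 h, 0.0212% at 2 h, 0.0159% at 4 h and 0.0849% for the average. The smallest unadjusted p of these comparisons was 0.080 at 0 h. Nor was any member called for a difference of response between genotypes: 0 of 8 members were called by edgeR, and 0 by DESeq2, for the difference of the 2 h response and of the 4 h response, with 0 at an unadjusted p under 0.05, where 0.00531% of genes were called in each.

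The intervals say how large a difference could have been missed. Averaged over the times, the log2 fold change of grf6 grf8 over WT was -0.07 for PYL7, with a 95% interval from -0.34 to 0.19, and -0.04 for PYL8, with an interval from -0.29 to 0.21. It was 0.14 for PYL9 (-0.10 to 0.37), -0.05 for PYR1 (-0.36 to 0.27), -0.12 for PYL1 (-0.39 to 0.15) and 0.04 for PYL5 (-0.41 to 0.49). For these 6 members the intervals of the average end short of a log2 difference of 0.5 in either direction. The low members were less well bounded, at -0.39 for PYL4 (-0.91 to 0.12) and 0.43 for PYL6 (-0.53 to 1.39). At single times and for the differences of response the intervals were wider and left larger differences possible. That of PYL5 ran from -0.52 to 1.03 at 4 h and from -0.58 to 1.64 for the 4 h response. That of PYR1 ran from -0.80 to 0.30 at 0 h and from -0.44 to 1.12 for the 2 h response.

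At single times the widest interval among these genotype comparisons was that of PYL6 at 4 h, from -0.77 to 2.72. The lowest value was that of PYL4 at 0 h, -0.76 with an interval from -1.61 to 0.10 (edgeR adjusted p = 1). At 2 h the 4 grf6 grf8 libraries of PYL4, at 0.721 to 1.02 CPM, lay below its 4 WT libraries, at 1.12 to 1.90 CPM. The test did not call PYL4 at 2 h (-0.57, interval -1.48 to 0.34), and it had 13 to 37 counts in these libraries. Of the 8 tested members, 1 did not overlap between genotypes at 2 h, 0 at 0 h and 0 at 4 h. How many of all genes separated in this way was not counted.

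**Figure D5:**
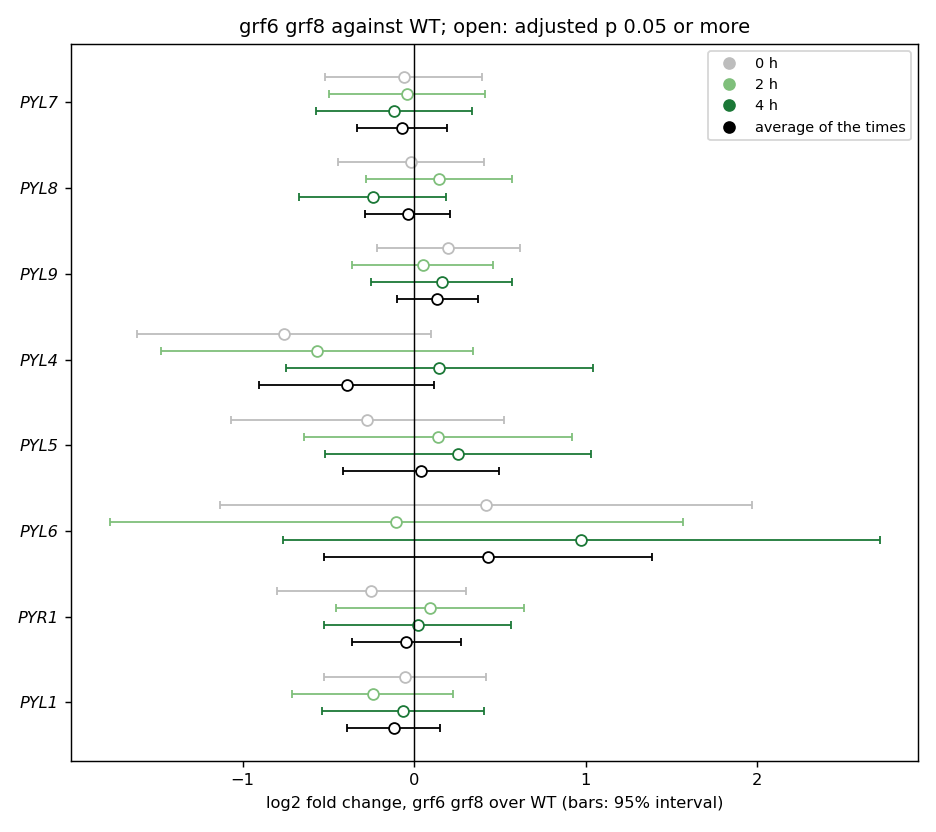
Log2 fold change of grf6 grf8 over WT for the 8 tested receptors at 0 h, 2 h, 4 h and averaged over the times; bars are 95% intervals of the edgeR fit. All dots are open (adjusted p of 0.05 or more), and the bars of every member cross 0.

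The partners of the receptors moved by other amounts. Of the 9 clade A PP2Cs, which the receptors inhibit, 8 were tested, and all 8 rose in both genotypes at 2 h and at 4 h, with a median log2 fold change at 4 h of 4.12 in grf6 grf8 and 4.55 in WT. Of all genes, 23.2% in grf6 grf8 and 23.1% in WT were called higher at 2 h, and 28.1% in grf6 grf8 and 27.8% in WT at 4 h. The summed FPKM of the phosphatases was 0.595 ± 0.0958, 6.22 ± 0.439 and 7.09 ± 1.65 times that of the receptors at the 3 times in grf6 grf8, and 0.462 ± 0.115, 5.74 ± 1.73 and 7.33 ± 0.690 times in WT (SD, n = 4 each). Of the 3 subclass III SnRK2s, 1 rose and 1 fell in grf6 grf8 at 4 h, and 1 rose and 2 fell in WT, where 51.2% of all genes were called in grf6 grf8 and 50.0% in WT. OST1, the guard cell kinase that opens anion channels, rose by 0.94 ± 0.16 on the log2 scale in both genotypes at 4 h (edgeR adjusted p = 5.4e-05 in grf6 grf8 and 5.9e-05 in WT). SNRK2.2, which acts mainly in seeds and seedlings, fell by 0.65 in grf6 grf8 (adjusted p = 7.8e-05) and by 0.56 in WT (adjusted p = 0.00036). SNRK2.3, its close relative, had a log2 fold change of -0.30 ± 0.13 in grf6 grf8 (adjusted p = 0.067) and -0.70 ± 0.13 in WT (adjusted p = 0.00020). Between genotypes edgeR called 0 of the 8 PP2Cs and 0 of the 3 SnRK2s at any time, for the average or for either response. DESeq2 called 0 as well. Of the SnRK2s, 2 had an unadjusted edgeR p under 0.05 at 4 h, where 731 of 18841 genes did. The SnRK2s had 1 such p each at 0 h, for the average and for the 4 h response. The PP2Cs had 1 at 0 h and 1 for the 4 h response. Of all 18841 genes, 547 had such a p at 0 h, 827 for the average and 449 for the 4 h response.

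Of 13 genes whose products bind, modify or degrade the receptors, 12 were tested. At 4 h, 5 rose and 1 fell in grf6 grf8, and 6 rose and 1 fell in WT; at 2 h, 2 rose and 1 fell in grf6 grf8, and 3 rose and 1 fell in WT. Of all genes, 28.1% in grf6 grf8 and 27.8% in WT were called higher at 4 h, and 23.1% and 22.2% lower. At 2 h, 23.2% in grf6 grf8 and 23.1% in WT were higher, and 20.3% and 19.2% lower. Both directions together came to 51.2% in grf6 grf8 and 50.0% in WT at 4 h, and to 43.5% and 42.3% at 2 h. At 4 h the share of the 12 genes that rose was above that of all genes. The share that fell was below it. These differences were not tested. Between genotypes 0 of the 12 were called by edgeR at any time, for the average or for either response, and 0 were called by DESeq2. An unadjusted edgeR p under 0.05 was found for 1 at 2 h, where 512 of 18841 genes had one. There was 1 at 4 h, where 731 genes had one, and 1 for the 2 h response, where 467 genes did. MYB44, a transcription factor that binds some subfamily I receptors, rose at 4 h by 1.64 ± 0.25 on the log2 scale in grf6 grf8 (edgeR adjusted p = 1.7e-05) and by 2.07 ± 0.26 in WT (adjusted p = 1.4e-06). The fall was that of CEPR2, a receptor kinase that marks PYL4 for degradation, at -1.69 ± 0.17 in grf6 grf8 (adjusted p = 8.4e-08) and -1.51 ± 0.17 in WT (adjusted p = 3.8e-07). FREE1 (FYVE1), an endosomal sorting protein that takes PYL4 to the vacuole, rose by 0.62 ± 0.16 in grf6 grf8 (adjusted p = 0.0026) and by 0.60 ± 0.16 in WT (adjusted p = 0.0033).

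Other genes followed the same course over the 6 groups. Likeness was measured as the root mean square difference of centred log2 CPM group means, over 10919 genes that averaged at least 10 CPM. Nearest to PYL8 were PIN3, an auxin efflux carrier, at 0.056, GPX1, a glutathione peroxidase, at 0.058, and cICDH, a cytosolic isocitrate dehydrogenase, at 0.059, against a median of 0.755 over these genes. Nearest to PYL7 were SULTR4;1, a vacuolar sulfate exporter, at 0.055, AT3G25870 at 0.058 and AT4G11570 at 0.070, against a median of 0.986. PYR1 was nearest to DRH1, a DEAD box RNA helicase, at 0.030, AT3G44620 at 0.033 and AT1G80960 at 0.035, against a median of 0.403. With 6 group means a close match describes the course only.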

How the data were processed

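Messenger RNA of rosette leaves was sequenced in 24 libraries, and groups follow the genotype and treatment in the labels. The expected counts per gene, which the authors deposited as whole numbers, were used as they stand. The authors also deposited FPKM, which was proportional to the count divided by a fixed length per gene (median spread of the implied length 0.003% over 9958 genes). Per the submitters' processing notes, the tools were HISAT2, RSEM, StringTie 1.3.1, fastp 0.18.0 and Bowtie2 2.2.8, besides edgeR and DESeq2, with build TAIR10 and no stated role for each. Of 27664 genes, 248 carry assembly names. Total counts of 17.4 M to 22.4 M per library set the precision, which the intervals state for counting and replicate error together.

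Genes were filtered with filterByExpr on the 6 groups, which left 18841, libraries were scaled by TMM (factors 0.843 to 1.28), and the 6 group means were estimated in 1 model of all libraries with edgeR 4.0.16 (R 4.3.3, limma 3.58.1). Tests were two-sided quasi-likelihood tests with Benjamini-Hochberg adjustment over all genes, and the SE and the 95% interval of a log2 fold change come from the test statistic. Alternatives were DESeq2 1.42.0, RLE size factors, no filter, a stricter filter, the replicate number as a block, the cell cycle score as a covariate, a fit of the compared groups alone, no high-score libraries, and leaving out each library in turn. Replicate numbers did not pair the libraries: deviations of same-numbered libraries correlated from -0.783 to 0.628 (median 0.044, 60 pairs). Of the 10 members, 8 were tested in each comparison and the others are given by their counts. The comparisons of 4 h with 2 h, of genotypes at single times and of responses name only some members. Partner genes are up to 3 per list with the smallest adjusted p at 4 h. Likeness was limited to the 3 nearest genes of the 3 most abundant members. The members and lists were chosen with earlier results of these data known. Coordinates and sequences are from RefSeq TAIR10.1 (Biopython 1.88), matched by locus identifier for all 10 members, and no coordinate of the deposited files was used. Figures were drawn with matplotlib 3.10.9.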

Additional observations from a re-analysis of the deposited data

Results flagged for a closer look

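Dixon's criterion was applied in each of the 6 groups to the CPM of the 8 tested receptors, the summed FPKM of the 10 receptors and the PYL7 to PYL8 ratio. Of these 60 sets of 4 libraries, 3 held a library far from the other 3, and chance gives about 1 in 20, which is 3. PYL2 and PYL3, at 0 in most libraries, were not included. PYL1 had 5.51 CPM in grf6 grf8 2 h replicate 3, against 8.27 to 8.82 CPM in the other 3 libraries of that group. PYL1 also had 8.96 CPM in grf6 grf8 4 h replicate 3, against 5.91 to 6.21 CPM in the others. PYL4 had 0.721 CPM in grf6 grf8 2 h replicate 1, against 0.997 to 1.02 CPM in the others. None of these values carries a call reported above except the fall of PYL4 in grf6 grf8 at 2 h, which was called without that library too.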

How the results depend on the processing

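The numbers of receptors called at 2 h and at 4 h against 0 h stayed within 1.5 times under the alternatives run, except in WT at 2 h without the 5 libraries rich in cell cycle transcripts, where 7 members were called in place of 4 and 10652 of 18771 genes in place of 7963 of 18841. Leaving out each library in turn gave 5 to 6 calls in grf6 grf8 and 4 to 6 in WT at 2 h, and 5 to 6 in both genotypes at 4 h. The comparisons of 4 h with 2 h depended on the setting. In grf6 grf8, 1 member was called, against 0 without a low-count filter, 0 with the replicate block and 0 in a fit of the 2 groups alone, 2 with DESeq2, 3 without the 5 libraries, 4 with the cell cycle score as covariate, and 0 to 2 with a library left out. In WT, 0 were called, against 1 with the covariate, 3 without the 5 libraries and 0 to 2 with a library left out. For all genes, the WT count of 884 became 37 in a fit of the 2 groups alone, 1658 with DESeq2, 3501 with the covariate, 4010 without the 5 libraries and 3455 without WT 4 h replicate 4, and the grf6 grf8 count of 2286 became 1312, 6114 with the covariate and 5861 without the 5 libraries. The cause was not tested. Between genotypes and for the differences of response, 0 members were called under each alternative (0 to 0 with a library left out). PYR1 in grf6 grf8 at 4 h against 2 h, not called at 0.31, became -0.0094 without grf6 grf8 4 h replicate 4 (adjusted p = 0.99) and ran up to 0.4553 without others. Among single members, 962 alternative values kept direction and side of the threshold, 28 lost and 29 gained it. The replicate block, which joins libraries that share only a number, ended the calls of PYR1 in WT at 4 h and of PYL8 in grf6 grf8 at 4 h against 2 h and changed no other. PYL2 and PYL3 had too few counts to be tested, and PYL6 had at most 26 in a library.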
